A study of Mus musculus with 7 samples.

Results

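Skeletal and cardiac muscle genes were followed in RNA from medullary thymic epithelial cells (mTECs) of the mouse. The 38 genes were chosen by name from the 55536 genes of the deposited table, and all 38 were found. They cover the factors that switch on the muscle programme, the fusion proteins of myoblasts, the proteins of the sarcomere, and the proteins that release calcium. The cells were EPCAM-positive mTECs sorted fresh from the thymus and lysed for SMART-seq, which copies full-length transcripts from few cells. All 7 samples carried Ikzf1fl/fl, a floxed gene of the transcription factor Ikaros, and Pou2f3-/-, a null state of the factor that tuft cells require. The 4 Cre-negative samples (numbered 46, 48, 75 and 77 in the labels) keep the floxed Ikzf1, and in the 3 Cre-positive samples (45, 76 and 80) Cre can delete part of it. The series asks how the loss of Ikaros alters expression where tuft cells cannot form. The sources used here do not give the Cre driver, the floxed exon or the age of the animals. They also do not say whether the numbered samples came from different animals, so a p-value reflects the spread between samples, and that spread may be technical.

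As background, the thymic medulla shows developing T cells the proteins of peripheral tissues, muscle among them. Part of this display comes from scattered expression under the regulator Aire, and part from mimetic cells, mTECs that take on the programme of a peripheral cell type. Muscle mimetic cells, long known as thymic myoid cells, express Myog and sarcomere genes, and muscle antigens of the thymus are of interest because of myasthenia gravis. In muscle itself, Myf5 and Myod1 commit cells to the lineage, Myog and Myf6 (also called MRF4) drive differentiation, and Mef2c acts beside them.

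The libraries held 9815958 to 12599078 recovered reads in the Cre-negative group and 11383465 to 11623062 in the Cre-positive group. Genes with at least 10 reads numbered 19417 to 20467 in the Cre-negative libraries and 17169 to 18014 in the Cre-positive ones, without overlap. Values are normalized counts, that is, reads divided by a size factor per library. Ikzf1 ran from 1118.7 to 1219.0 normalized counts in Cre-negative libraries and from 1310.3 to 1828.6 in Cre-positive ones, and because the values are sums over the gene they do not check the labels. Epcam, the marker of the sort, ran from 3882.7 to 6771.2 over all libraries. Y-linked genes summed to 4186.1 in Cre-negative 48, to 156.7 to 541.4 in the other Cre-negative libraries and to 22 to 576.1 in the Cre-positive ones. A gene was called when its adjusted p (limma, Benjamini-Hochberg over all genes tested) was under 0.05, and only called genes are said to have risen or fallen. Fold changes are Cre-positive minus Cre-negative on the log2(normalized count + 1) scale. The added 1 shrinks the changes of genes near 0. Single libraries are always listed as 46, 48, 75 and 77 for Cre-negative and then 45, 76 and 80 for Cre-positive samples. Calls numbered 1066 higher and 2084 lower among 22878 genes. Scaling by library total gave 583 and 2638, and shifted the median over all genes by -0.20 on the log2 scale.

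In Cre-positive samples the differentiation factor Myog rose, while 7 other muscle genes fell: Neb, Myl2, Tnni1, Tnnt2, Actc1, Myh4 and Myf6. Of the 38 genes, 35 passed the filter of a mean of 5 normalized counts and were tested, and Myod1, Tnnc2 and Cacna1s did not. Of these 35, 8 were called, where 13.8% of all genes tested were. The single call higher stands beside 4.66% of all genes, and the 7 calls lower beside 9.11%. Over the 35, the median log2 fold change was -1.17, against -0.10 over every gene tested. The fold change lay below 0 for 23 of them and above 0 for 12. These counts and the median, which is the value of Myh2, include genes whose mean reached 5 in a single group. Casq1 (means 16.9 and 1.33) and Myh2 (10.9 and 4.07) reached it in Cre-negative libraries only. Myf5 (3.65 and 11.7) and Myh1 (4.38 and 7.9) reached it in Cre-positive libraries only. Without Cre-negative 75, Cre-negative 77 or Cre-positive 76 the calls lower were 4, 3 and 3 in place of 7. Among all genes they were then 1688, 1518 and 1759 in place of 2084. Without Cre-positive 45 there were 2 muscle genes called higher, Myl1 being the second. At an unadjusted p under 0.05 there were 17 of the 35, where 28.4% of all genes passed. The smaller number of genes read in each Cre-positive library moved with these falls, and its part in them was not tested. Aire, one of the mTEC markers, also moved with them, at 3694.0 to 5435.7 normalized counts in Cre-negative and 2689.8 to 3297.9 in Cre-positive libraries (log2 fold change -0.56, limma adjusted p = 0.0395), and its part was not tested either. In bulk RNA, fewer cells of a type and less RNA per cell cannot be told apart.

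**Figure D1:**
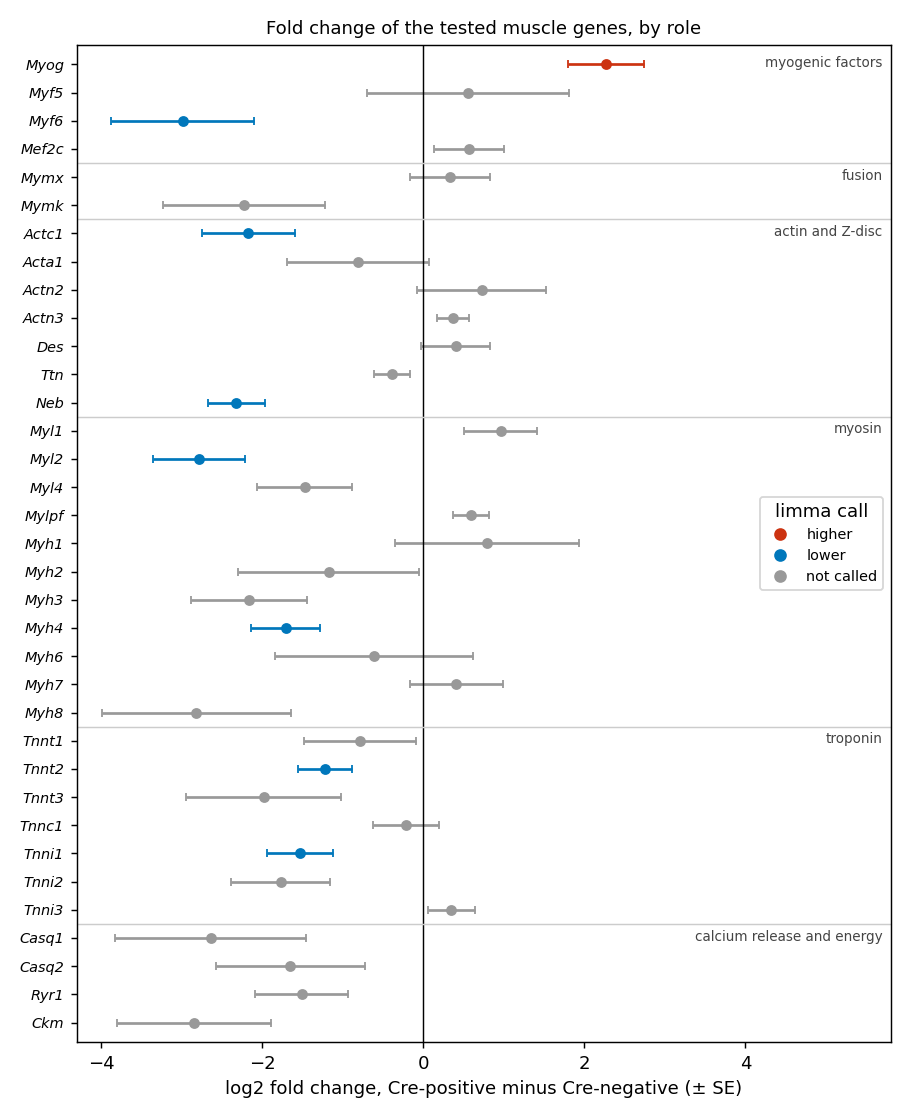
log2 fold change (Cre-positive minus Cre-negative, x axis) of the 35 tested muscle genes, grouped by role, with bars for the standard error. Myog is the only gene called higher, at 2.27, and the 7 called lower lie between -2.99 and -1.22.

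The groups were apart, with no overlap of single libraries, for 2 muscle genes that were higher in Cre-positive samples (Myog and Tnni3; 10.8% of all genes tested) and for 8 that were lower (14.5% of all genes tested). The 8 were Neb, Myl2, Tnni1, Tnnt2, Actc1, Myh4, Myh3 and Ryr1. Myf6 was called although its groups overlapped. With edgeR on the recovered reads, 7 of the 32 muscle genes it tested were called, where 13.7% of all genes were, and the lost call was Myf6. With DESeq2, 11 of 36 were called, where 17.3% of all genes were. The added calls were Myh3, Myh8 and Tnni2, all lower in Cre-positive samples.

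Myog (myogenin; ENSMUSG00000026459, chromosome 1, positions 134289989 to 134292548 of GRCm38) was read at 35.2, 61.1, 33.3 and 30.0 normalized counts in the Cre-negative libraries and at 108.7, 160.2 and 381.0 in the Cre-positive ones. Each Cre-positive library was therefore above each Cre-negative library, and Cre-positive 80 was far above the rest. The means were 39.9 ± 14.3 (SD, n = 4) and 216.6 ± 145 (SD, n = 3), a ratio of 5.43 and a log2 fold change of 2.27 (SE 0.47, limma adjusted p = 0.00732). Without Cre-positive 80 the log2 fold change was 1.76 and the call held (limma adjusted p = 0.0364). Per kilobase of exon, Myog rose from 26.7 normalized counts, rank 17 among the 38 genes, to 145, rank 4.

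Of the other members of the Myod family only Myf6 was called. Myf6 (chromosome 10, 107492853 to 107494737) had 12.6, 82.7, 33.3 and 101.3 against 5.2, 1.0 and 13.5 normalized counts. The lowest Cre-negative library, 46, lay just under the highest Cre-positive library, 80. Myf6 fell by 2.99 on the log2 scale (SE 0.89, limma adjusted p = 0.0415). The call was lost when Cre-positive 45 or 76, or Cre-negative 48, 75 or 77, was left out (limma adjusted p from 0.0664 to 0.123), with edgeR (adjusted p = 0.0508), with limma-voom (0.161) and with a term for the Y-linked sum (0.147). Its log2 fold change was -2.24 without Cre-positive 76 and -3.67 without 80. Myf5, whose gene lies 6.7 kb from Myf6, was read at 0, 6.9, 3.6 and 4.1 against 0, 4.0 and 31.1 normalized counts. Only Cre-positive 80 stood out, and Myf5 did not pass (log2 fold change 0.56, SE 1.25). Myod1 had 5.9, 8.9, 9.0 and 1.0 normalized counts in the Cre-negative libraries and 0, 4.0 and 0 in the Cre-positive ones. With 27 and 4 recovered reads in the groups it was below the filter and was not tested. Mef2c ran from 31.5 to 89.6 in Cre-negative and from 65.8 to 90.3 in Cre-positive libraries and did not pass (limma adjusted p = 0.435).

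**Figure D2:**
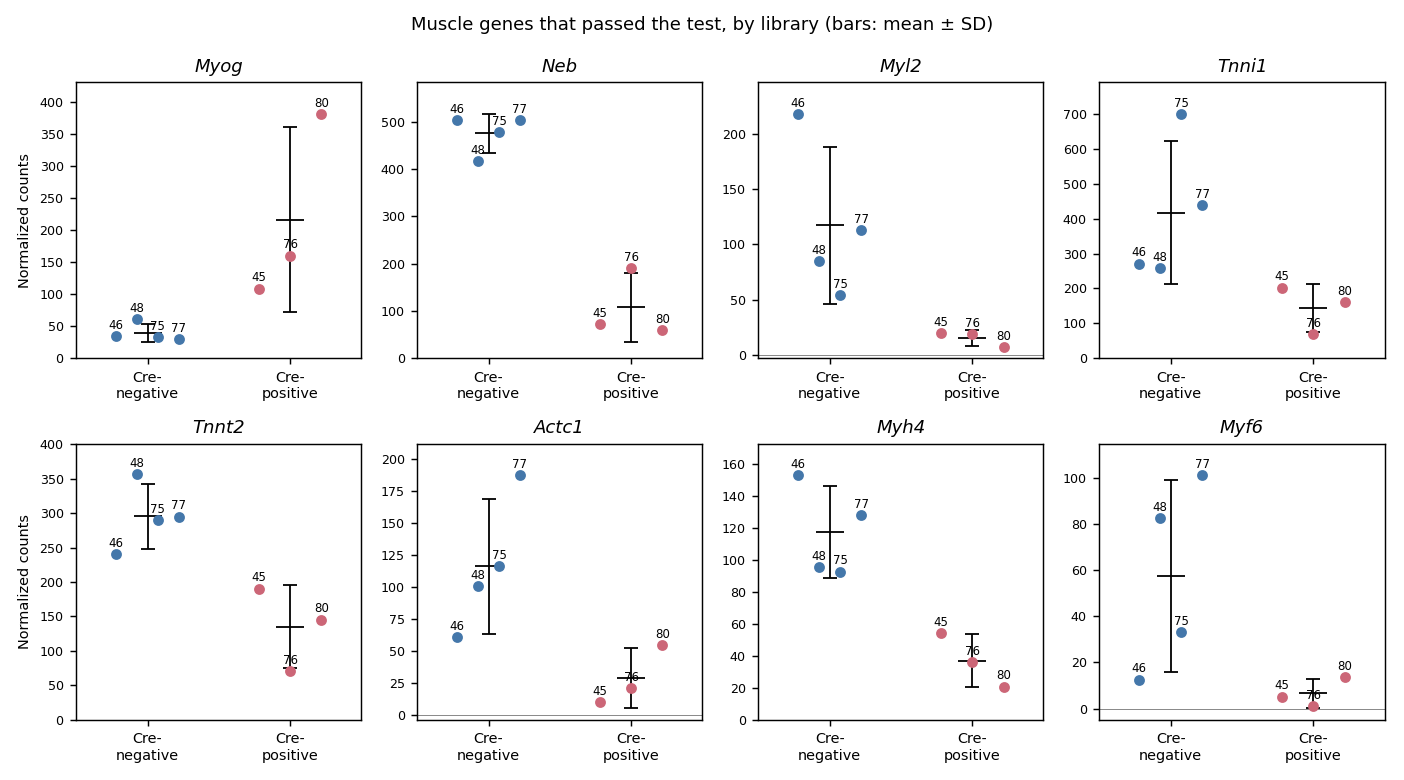
Normalized counts (y axis, linear) of the 8 called muscle genes in each of the 4 Cre-negative (blue) and 3 Cre-positive (red) libraries, labelled by sample number, with mean ± SD. Myog is above 100 in every Cre-positive library, Neb drops from over 400 to under 200, and Myf6 is the gene whose groups overlap.

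Promoter windows of Myog, the only riser, and of the fallers Tnnt2, Myh4 and Actc1 are printed. They are examples that set the binding motifs of the muscle factors beside called genes. Windows of the fallers Tnni1 and Myl2 were also matched and are not printed. The windows hold 250 bases before and 50 after a gene start (RefSeq, GRCm38.p6, whose starts can differ from the gene bounds given here), printed 5′ to 3′ on the gene's strand. Capitals mark E-boxes (CANNTG, the site of the Myod family), the MEF2 consensus and the CArG box of serum response factor. The window of Myog is chr1:134289754-134290053 (+), of Tnnt2 chr1:135836084-135836383 (+), of Myh4 chr11:67237562-67237861 (+) and of Actc1 chr2:114052826-114053125 (-).
Myog: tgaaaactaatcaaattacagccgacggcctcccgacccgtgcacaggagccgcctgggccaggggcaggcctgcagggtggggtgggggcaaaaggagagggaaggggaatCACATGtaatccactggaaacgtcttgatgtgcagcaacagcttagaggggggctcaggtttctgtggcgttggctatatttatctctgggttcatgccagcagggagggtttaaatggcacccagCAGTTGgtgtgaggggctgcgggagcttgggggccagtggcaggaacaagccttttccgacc
Tnnt2: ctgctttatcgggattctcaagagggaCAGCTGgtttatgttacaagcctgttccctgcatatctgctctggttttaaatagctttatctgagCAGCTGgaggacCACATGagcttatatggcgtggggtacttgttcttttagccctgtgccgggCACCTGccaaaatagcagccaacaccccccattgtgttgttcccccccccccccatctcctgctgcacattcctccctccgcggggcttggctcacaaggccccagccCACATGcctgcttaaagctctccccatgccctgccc
Myh4: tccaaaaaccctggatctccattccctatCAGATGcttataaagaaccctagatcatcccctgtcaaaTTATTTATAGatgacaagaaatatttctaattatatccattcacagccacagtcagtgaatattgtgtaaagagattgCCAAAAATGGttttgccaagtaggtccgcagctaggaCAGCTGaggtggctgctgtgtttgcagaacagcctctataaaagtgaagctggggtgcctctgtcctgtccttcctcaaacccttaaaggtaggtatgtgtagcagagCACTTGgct
Actc1: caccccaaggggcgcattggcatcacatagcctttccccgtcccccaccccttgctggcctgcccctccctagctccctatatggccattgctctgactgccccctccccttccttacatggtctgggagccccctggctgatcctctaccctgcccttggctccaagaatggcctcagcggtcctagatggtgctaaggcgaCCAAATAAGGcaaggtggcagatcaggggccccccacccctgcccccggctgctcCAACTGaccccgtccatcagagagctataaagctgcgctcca

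The Myog window held 2 E-boxes and no full match to the other motifs. The MEF2 pattern searched was YTAWWWWTAR, where Y is C or T, W is A or T and R is A or G. The letters ctatatttat in the Myog window miss it in the last letter only. Near matches were not counted in any window. Tnnt2 held 5 E-boxes, 2 of them with the letters CAGCTG. The Myh4 window had 3 E-boxes, 1 MEF2 match and 1 CArG box, and the Actc1 window had 1 E-box and 1 CArG box. The windows of Tnni1 and Myl2 held 4 and 3 E-boxes and no MEF2 match or CArG box. Among genes not called, Acta1 held a CArG box, and Casq2, Myh1, Myh8 and Ttn each held a MEF2 match. With a single riser, these windows cannot tie a motif to a direction of change. Windows were matched for 30 of the 38 genes. Where a gene had several, the window nearest its start in GENCODE M21 was used, while the shares of all windows count every window. Another Tnnt2 window held 2 E-boxes and no CAGCTG. The windows used lay up to 19987 bases from that start, the farthest being that of Tnni1. An E-box was in 25 of the 30 (83.3%), where 72.3% of all 32817 windows of this length held it. CAGCTG, which is counted within CANNTG, was in 11 (36.7%, against 16.3% of all windows). MEF2 matches were in 5 (16.7%, against 3.19%) and CArG boxes in 3 (10.0%, against 1.63%). Both strands were searched. A match is a description of the letters, and no match says only that they are not in this window.

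Neb encodes nebulin, the giant ruler protein of the thin filament, and it had the smallest adjusted p of the 38 genes. Neb (chromosome 2, 52136647 to 52378474) had 502.8, 416.7, 477.4 and 503.5 normalized counts in the Cre-negative libraries, and the Cre-positive values were 72.1, 191.3 and 60.2. The Cre-negative libraries were close together, and all Cre-positive libraries were well below them, 76 the least. The means of 475.1 ± 40.8 (SD, n = 4) and 107.9 ± 72.5 (SD, n = 3) gave a log2 fold change of -2.32 (SE 0.35, limma adjusted p = 0.00116). Neb and Myl2 kept their calls in all 18 alternatives, as did Myog.

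Among the other thin-filament and Z-disc genes, Actc1, the cardiac actin that is also used in embryonic skeletal muscle, fell. Actc1 (chromosome 2, 114047282 to 114053548) was read at 61.2, 100.5, 116.2 and 187.1 against 10.4, 21.0 and 55.0 normalized counts. The gap between the groups was narrow, from 55.0 to 61.2. Its log2 fold change of -2.17 (SE 0.57, limma adjusted p = 0.0254) lost the call when Cre-positive 45 or 76, or Cre-negative 48, 75 or 77, was left out (0.0560 to 0.0802), and was -2.78 without Cre-positive 80. The call was also lost with limma-voom (adjusted p = 0.0561) and with the Y-linked term (0.115). Acta1, the adult skeletal actin, had 15.9, 28.6, 11.7 and 114.8 against 6.3, 11.0 and 51.9 normalized counts and did not pass (log2 fold change -0.81, limma adjusted p = 0.594). Each group of Acta1 had 1 high library, Cre-negative 77 and Cre-positive 80.

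Actn3, the alpha-actinin of fast fibres, and Ttn, the molecular spring titin, were among the most read members and were not called. Actn3 had 1159.0, 1075.6, 1522.4 and 1199.3 against 1500.5, 1280.8 and 2089.6 normalized counts (log2 fold change 0.37, SE 0.20, limma adjusted p = 0.247). Ttn had 1264.6, 1338.6, 1959.3 and 2279.7 against 1563.2, 1173.7 and 1111.7 (log2 fold change -0.39, SE 0.23, limma adjusted p = 0.290). In both genes the groups overlapped. Actn2, the alpha-actinin of heart and of all fibre types, ran from 4.9 to 30.6 and from 8.4 to 30.0, and desmin (Des), the muscle intermediate filament, from 57.1 to 138.5 and from 75.2 to 196.2. Neither passed (limma adjusted p = 0.598 and 0.581).

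Of the 4 myosin light chains, Myl2, the regulatory chain of heart ventricle and slow fibres, fell. Myl2 (chromosome 5, 122100951 to 122113472) had 217.9, 84.7, 54.1 and 112.7 against 19.9, 19.0 and 7.3 normalized counts. Every Cre-positive library was under 20, and the Cre-negative libraries were spread over a wide range above them. The ratio of the means was 7.62 and the log2 fold change -2.78 (SE 0.57, limma adjusted p = 0.00691). Mylpf, the regulatory chain of fast fibres, went the other way without passing. It had 512.0, 566.4, 461.2 and 722.7 against 707.4, 744.1 and 1132.5 normalized counts (log2 fold change 0.59, SE 0.23, limma adjusted p = 0.104). Myl1, the essential light chain of fast fibres, had 83.8, 104.4, 129.7 and 83.7 against 79.4, 233.3 and 386.2. It was not called with all samples (log2 fold change 0.96, limma adjusted p = 0.189) and was called higher without Cre-positive 45 (log2 fold change 1.59, limma adjusted p = 0.0145). Myl4, the atrial and embryonic light chain, ran from 61.1 to 208.7 and from 16.7 to 97.1 and did not pass (log2 fold change -1.47, limma adjusted p = 0.119).

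Myosin heavy chains mark the stage and type of a fibre. Myh4, the chain of the fastest adult fibres, was the only called gene of the 7 heavy chains. It had 153.4, 95.5, 92.8 and 128.2 against 54.3, 36.1 and 20.8 normalized counts, so that the groups stood apart. The log2 fold change was -1.71 (SE 0.43, limma adjusted p = 0.0203), and the call was lost without Cre-negative 46 (0.0716), Cre-negative 77 (0.0554) or Cre-positive 80 (0.0569). Myh3, the embryonic chain, had 132.4, 45.3, 28.8 and 109.6 against 24.0, 25 and 4.2 normalized counts. Its groups did not overlap, yet it missed the threshold (log2 fold change -2.16, SE 0.72, limma adjusted p = 0.0665), and it was called without Cre-negative 75. Myh8, the perinatal chain, had 107.3, 3.9, 85.6 and 44.5 against 0, 18.0 and 7.3 and overlapped because of Cre-negative 48 (log2 fold change -2.82, limma adjusted p = 0.135). It was called without Cre-negative 48 (log2 fold change -3.80, limma adjusted p = 0.0370), and gave -1.60 without Cre-positive 45 and -3.72 without 76. Myh1 and Myh2, chains of adult fast fibres, and the cardiac chains Myh6 and Myh7 stayed at or under 43.6 normalized counts in every library, and none of the 4 passed (limma adjusted p from 0.539 to 0.792). Myh3, Myh2, Myh1, Myh4 and Myh8 lie within 230.3 kb of chromosome 11 and share sequence: 18.9% of the 50-base words of Myh4 and 30.5% of those of Myh1 also occur in transcripts of other genes. Values of single heavy chains are therefore uncertain.

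Troponin is the calcium switch of the thin filament, made of an inhibitory (I), a tropomyosin-binding (T) and a calcium-binding (C) subunit. Tnni1, of slow fibres, and Tnnt2, of heart and embryonic muscle, both fell. Tnni1 (chromosome 1, 135779434 to 135810989) had 271.5, 258.1, 700.0 and 439.4 against 202.7, 70.1 and 160.9 normalized counts. The groups did not overlap, and Cre-negative 75 was the highest. Its log2 fold change was -1.53 (SE 0.41, limma adjusted p = 0.0266), and the call was lost without Cre-negative 75 (0.0657), Cre-negative 77 (0.0663) or Cre-positive 76 (0.0986). Tnnt2 (chromosome 1, 135836354 to 135852260) had 240.5, 356.6, 289.2 and 294.7 against 190.2, 70.1 and 145.3 normalized counts, again with no overlap. The log2 fold change of Tnnt2 was -1.22 (SE 0.33, limma adjusted p = 0.0293), or -0.81 without Cre-positive 76. Its call was lost without that library or without Cre-negative 48, 75 or 77 (0.0547 to 0.0974), and with the Y-linked term (0.0688). The genes of Tnni1 and Tnnt2 are neighbours, 25.4 kb apart.

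The other troponin pairs were not called. Tnni2 and Tnnt3, the fast-fibre pair on chromosome 7, are 54.4 kb apart. Tnni2 had 206.2, 145.8, 164.9 and 55.8 against 75.2, 12.0 and 55.0 normalized counts (log2 fold change -1.77, SE 0.61, limma adjusted p = 0.0756), and it was called lower without Cre-negative 77 or Cre-positive 45. Tnnt3 had 84.6, 47.3, 79.3 and 55.8 against 5.2, 4.0 and 149.5. It was near 0 in Cre-positive 45 and 76 and at its highest of all libraries in Cre-positive 80, and it did not pass (log2 fold change -1.98, SE 0.96, limma adjusted p = 0.197). Without Cre-positive 80 it was called lower (log2 fold change -3.57, limma adjusted p = 0.00269). Tnnt1 of slow fibres and Tnni3 of the heart are 1.9 kb apart, also on chromosome 7. Tnni3 had 98.9, 106.4, 119.8 and 118.9 against 134.8, 160.2 and 129.8, higher in each Cre-positive library but by little (log2 fold change 0.35, SE 0.29, limma adjusted p = 0.477), and its exons overlap those of Dnaaf3 on the same strand. Tnnt1 ran from 18.0 to 103.4 and from 10.4 to 46. Tnnc1, the calcium-binding subunit of slow fibres and heart, ran from 154.0 to 252.2 and from 98.1 to 365.4 (limma adjusted p = 0.785). The log2 fold change of Tnnc1 was -0.21 by limma and 0.014 by edgeR. Tnnc2, its fast-fibre counterpart, was under the filter with 12 and 3 recovered reads.

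No member of the calcium release and energy group was called. The 4 tested had fold changes below 0, while the untested Cacna1s went the other way, with means of 2.675 and 4.4 normalized counts. Casq1 passed the filter only through its Cre-negative libraries, with means of 16.9 and 1.33. Ryr1, the calcium release channel of skeletal muscle, had 46.1, 45.3, 85.6 and 50.7 against 8.4, 24.0 and 31.1 normalized counts. The groups were apart, and the test was not passed (log2 fold change -1.51, SE 0.57, limma adjusted p = 0.0996). Ckm, the muscle creatine kinase, had 21.8, 26.6, 45 and 53.8 against 1.0, 1.0 and 29.1 (log2 fold change -2.85, SE 0.96, limma adjusted p = 0.0678). Without Cre-positive 80 it was called lower (log2 fold change -4.15, limma adjusted p = 0.00639), as it was with the term for the range of sample numbers (0.0439) and with library total scaling (0.0499). The calcium-binding calsequestrins Casq1 of fast fibres and Casq2 of heart and slow fibres ran from 0.8 to 42.3 and from 4.9 to 27.9 in Cre-negative libraries, and up to 4.0 and 13.5 in Cre-positive ones (limma adjusted p = 0.164 and 0.269). Cacna1s, the voltage sensor of skeletal muscle, was under the filter with 12 and 13 recovered reads.

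The fusion proteins Mymx and Mymk, both needed for myoblasts to fuse into fibres, were not called with genotype as the only term. Mymx, which is also known as myomerger or myomixer, had 57.8, 75.8, 52.2 and 92.0 against 37.6, 95.1 and 174.4 normalized counts (log2 fold change 0.33, limma adjusted p = 0.710). Mymk, or myomaker, had 29.3, 16.7, 45 and 51.7 against 0, 13.0 and 26.0 (log2 fold change -2.22, SE 1.01, limma adjusted p = 0.167). It gave -0.80 without Cre-positive 45 and -3.17 without 80, and was called lower with a term for the range of sample numbers (limma adjusted p = 0.0494). A listed 0 allows up to 3 reads, by counting error only.

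The Cre-positive libraries differed among themselves over the muscle genes, a pattern picked out after the values were seen. Cre-positive 80 was the highest of all 7 libraries for 11 of the 35 tested genes. These were Myog, Myf5, Mef2c, Mymx, Actn3, Des, Myl1, Mylpf, Myh7, Tnnt3 and Tnnc1. Against the mean of Cre-positive 45 and 76, Cre-positive 80 was 2.83 times as high for Myog, 2.63 times for Mymx, 2.47 times for Myl1, 3.36 times for Tnnc1 and 32.5 times for Tnnt3. The same library was alone the lowest of all 7 for 6 genes (Ttn, Tnnt1, Neb, Myl2, Myh3 and Myh4), and for the last 4 of these it reached 0.457, 0.375, 0.171 and 0.460 of that mean. Cre-positive 45 was alone the lowest for 10 of the 35, tied for the lowest in 4 more (Myf5, Myh6, Casq1 and Ckm), and listed 9 of the 38 genes at 0, where the other libraries listed 0 to 2. Summed over all genes, Cre-positive 80 also had the largest normalized total of the 7 libraries. It was 12065100, where the others ran from 9668750 to 11894800. How often a library was highest, lowest or at 0 over all genes was not counted, so the pattern is not shown to be particular to muscle genes. With 1 sample of each kind, the differences between the Cre-positive libraries have no test.

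**Figure D3:**
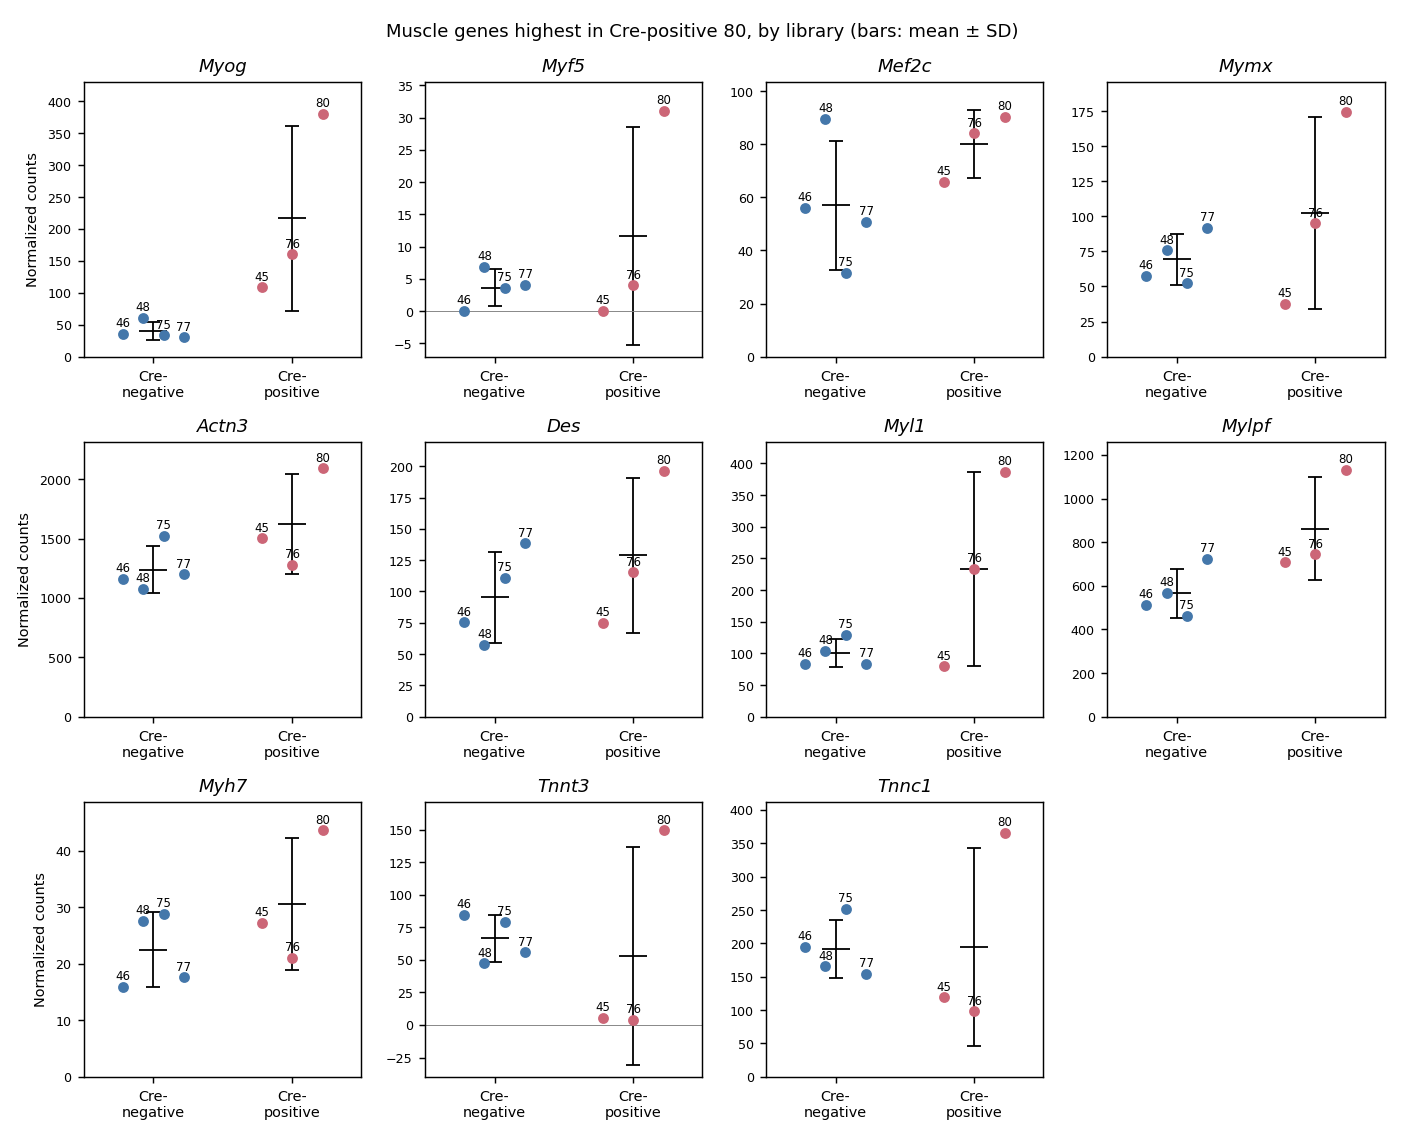
Normalized counts (y axes, linear) of the 11 muscle genes that were highest in Cre-positive 80, by library (4 Cre-negative in blue, 3 Cre-positive in red, labelled by sample number), with mean ± SD. For Tnnt3 the libraries 45 and 76 lie at 5.2 and 4.0 and library 80 at 149.5, and for Myog all 3 Cre-positive libraries lie above the Cre-negative ones.

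Levels of different genes were compared per kilobase of exon in GENCODE M21, with the exons of all annotated transcripts of a gene joined. Where this length exceeds that of the transcripts present, as it may for Tnnt2 (7752 bases) or Mef2c (15715 bases), the level per kilobase is too low. The order of genes is therefore approximate. In Cre-negative samples Mylpf and Actn3 led with means of 533 and 427 normalized counts per kilobase, and their ranges of single libraries overlapped (434 to 681, and 371 to 525). Tnnc1 came next at 184 (range 148 to 242), under both and without overlap with either. Tnni1 followed at 116, Tnni2 at 95.6 and Actc1 at 71.8, and from Tnnc1 on the ranges of neighbours overlapped. At the low end Myh1 and Cacna1s had 0.689 and 0.408. In Cre-positive samples Mylpf, Actn3 and Tnnc1 kept the first 3 ranks, while Myl2 moved from rank 8 to 19 and Myf6 from rank 11 to 23.

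Other genes of the muscle programme were counted in the same way. Of 119 genes in 6 further lists 107 were tested, and 30 were called (28.0%), 7 higher and 23 lower, where 13.8% of all genes tested were called. Of the 21 genes named from these lists, 9 kept their calls whichever library was left out, and 7 in every alternative run. Among myogenic regulators 1 rose (7.69%) and 2 fell (15.4%) of 13, where 4.66% and 9.11% of all genes did. Mean and SD are given for the 4 Cre-negative and the 3 Cre-positive libraries. Mef2a, a broadly expressed relative of Mef2c, had 648.8 ± 117 and 1183 ± 24.5 normalized counts and rose (log2 fold change 0.88, limma adjusted p = 0.00890). Smyd1, a methyltransferase needed for sarcomere assembly, fell from 64.0 ± 14.2 to 8.70 ± 12.4 (log2 fold change -3.59, limma adjusted p = 0.0119), with -4.68 without Cre-positive 45 and -2.89 without 76. By edgeR it was not called (log2 fold change -2.88, adjusted p = 0.0529). Pax7, the factor of muscle stem cells, fell from 56.5 ± 27.3 to 8.50 ± 7.57 (limma adjusted p = 0.0390). The call was lost without Cre-positive 45 and without Cre-negative 48, 75 or 77 (0.0821 to 0.102), and its log2 fold change of -3.17 was -1.92 without Cre-positive 45 and -3.90 without 80. It was also lost with a pseudocount of 0.5 (adjusted p just over the threshold), edgeR (0.0830), limma-voom (0.0946) and the Y-linked term (0.170, log2 fold change -2.44).

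Among the other sarcomere and Z-disc genes, 2 rose (5.71%) and 7 fell (20%) of 35 tested, beside 4.66% and 9.11% of all genes, with a median log2 fold change of -1.10. Myl3, the light chain that partners Myl2 in ventricle and slow fibres, fell from 103.0 ± 60.9 to 1.33 ± 0.577 (log2 fold change -5.23, limma adjusted p = 7.65e-04), and with limma-voom it was not called (adjusted p = 0.0602). Csrp3, the muscle LIM protein, fell from 197.8 ± 80.3 to 8.63 ± 14.1 (log2 fold change -5.64, limma adjusted p = 0.00171), with -7.04 without Cre-positive 80 and -4.69 without 45, and with -4.51 by edgeR. Nebl, the cardiac relative of Neb, fell by 1.29 on the log2 scale (limma adjusted p = 0.00480). Cryab, a small heat shock protein of the Z-disc that many other tissues also express, rose from 678.8 ± 246 to 2284 ± 923 (log2 fold change 1.75, limma adjusted p = 0.00258).

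In the list of excitation and calcium genes, 3 rose (14.3%) and 4 fell (19.0%) of 21, beside 4.66% and 9.11% of all genes. Sln, a small inhibitor of the calcium pump, fell from 306.5 ± 156 to 43.1 ± 41.3 (log2 fold change -3.61, limma adjusted p = 0.0179). Its call was lost without Cre-negative 46 or 48 (0.0537 and 0.0582) and with the Y-linked term (0.0557). By edgeR the log2 fold change was -2.85, and by limma it was -2.16 without Cre-positive 76 and -4.58 without 45. Ryr3, a calcium release channel, fell by 1.74 on the log2 scale (limma adjusted p = 0.0160; 0.0526 without Cre-negative 77). Clcn1, the chloride channel of muscle, and Srl, a calcium-binding protein of the sarcoplasmic reticulum, rose by 3.18 and 0.92 (limma adjusted p = 0.0165 and 0.0127). Neither was called without Cre-positive 80 (0.0859 and 0.0539).

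Of 19 metabolic and membrane genes 1 rose (5.26%) and 4 fell (21.1%), beside 4.66% and 9.11% of all genes. Pygm, the glycogen phosphorylase of muscle, rose from 46.5 ± 24.1 to 172 ± 23.7 (log2 fold change 2.01, limma adjusted p = 0.0119). Cox6a2, the muscle form of a cytochrome oxidase subunit, fell (log2 fold change -3.65, limma adjusted p = 0.0235), with -2.30 without Cre-positive 76 and -4.53 without 45. Leaving out Cre-negative 46, 75 or 77 ended the call (0.0531 to 0.0722), as did limma-voom (0.0724). Smpx, a small muscle protein, fell (log2 fold change -3.48, limma adjusted p = 0.0298), with -1.94 without Cre-positive 45, -4.23 without 76 and -4.28 without 80. It was not called when any Cre-negative library was left out (46, 48, 75 or 77; 0.0522 to 0.0744), nor with edgeR (0.0643, log2 fold change -2.61) or the Y-linked term (0.142, log2 fold change -2.66). Dysf, or dysferlin, a membrane repair protein, fell (log2 fold change -2.60, limma adjusted p = 0.0390), with -3.26 without Cre-positive 76. It lost its call without Cre-positive 45 or 80, or Cre-negative 46, 48 or 75 (0.0621 to 0.122), and with edgeR (0.0662), limma-voom (0.0975) and the Y-linked term (0.0957).

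Cardiac regulators and hormones gave 4 calls of 11 tested, all lower (36.4%, beside 9.11% of all genes). Tbx5 and Hand1, transcription factors of heart development, fell from 66.5 ± 14.9 to 3.40 ± 3.08 and from 58.5 ± 20.2 to 3.70 ± 3.04 (log2 fold changes -4.32 and -3.82, limma adjusted p = 0.00288 and 0.00362). Tbx5 gave -3.46 without Cre-positive 45. Ankrd1, a stress-responsive cardiac repeat protein, fell (log2 fold change -3.12, limma adjusted p = 0.0236), with -3.84 without Cre-positive 45 and -1.93 without 76. Its call was lost without Cre-negative 46 or 77 (0.0648 and 0.0705). Nppb, the natriuretic peptide of the ventricle, fell by 2.91 (limma adjusted p = 0.0418) with overlapping groups. It gave -1.63 without Cre-positive 45 and -3.91 without 80, and was not called without Cre-positive 45 or 76 or Cre-negative 46, 48 or 77 (0.0625 to 0.115). Its call also ended with edgeR (0.0909, log2 fold change -2.21), limma-voom (0.0757) and the Y-linked term (0.195, log2 fold change -1.74). Of 8 genes of the acetylcholine receptor and the neuromuscular synapse 2 fell (25%, beside 9.11% of all genes). Chrna1, the receptor subunit that carries the main antibody target in myasthenia gravis, had 342.7, 269.9, 154.0 and 306.0 against 100.3, 94.1 and 155.7 normalized counts. Its log2 fold change was -1.17 (limma adjusted p = 0.0335). Chrne, the adult receptor subunit, gave -1.27 (limma adjusted p = 0.0390). Either call was lost when any of 5 libraries was left out, namely Cre-positive 45 and 76 and Cre-negative 46 and 77 for both, with 48 for Chrna1 (0.0750 to 0.103) and 75 for Chrne (0.0761 to 0.113). With limma-voom and the Y-linked term Chrna1 had an adjusted p of 0.0538 and 0.147, and Chrne of 0.0615 and 0.0548. Without a filter Chrne was not called (limma adjusted p = 0.0534).

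**Figure D4:**
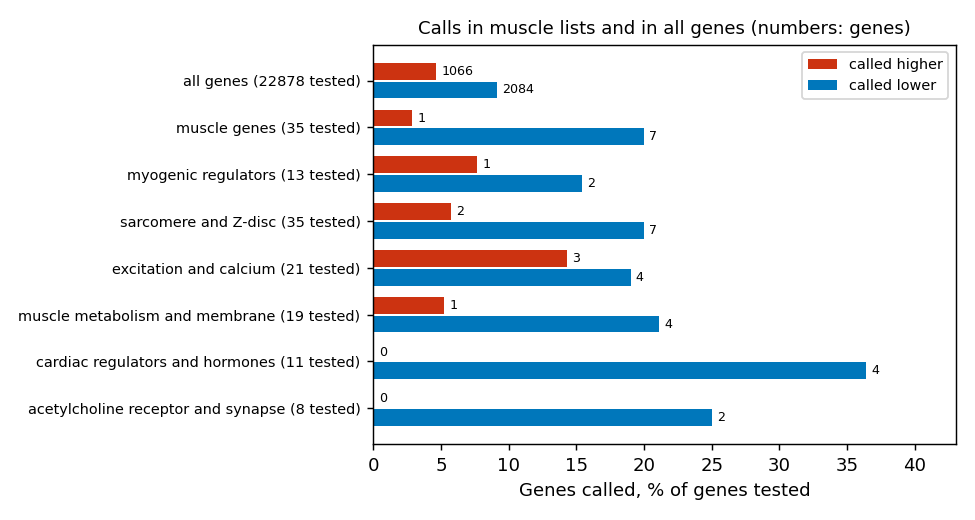
Share of tested genes called higher (red) and lower (blue) in Cre-positive samples (x axis, percent) for all genes, the muscle genes and 6 further muscle lists, with the number of genes at each bar. All genes stand at 4.66% higher and 9.11% lower, and the muscle genes at 1 and 7 of 35.

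Several muscle genes are also used by other cells of the thymus, and markers of those cells were read in the same libraries. Beside the marker counts stand 4.66% of all genes called higher and 9.11% lower. Of 12 smooth muscle and pericyte markers 1 was called, Rgs5, which was higher (8.33%). Their summed level was 5308.7 to 7079.7 normalized counts in Cre-negative and 10610.7 to 11405.4 in Cre-positive libraries. Rgs5 alone had 2806.0 to 4050.2 and 8222.3 to 8931.6 of these. The log2 fold change was below 0 for 8 of these 12 markers and above 0 for 4, with a median of -0.35. Of 8 fibroblast markers 3 were called, all lower (37.5%), with sums of 1245.8 to 1686.3 and 1191.7 to 1633.4. None of 7 endothelial markers was called by limma, with 1 at an unadjusted p under 0.05, and sums were 397.2 to 557.5 and 366.7 to 446.6. Of 5 B cell markers 1 was lower (20%; sums 325.9 to 446.7 and 240.3 to 473.3). None of 8 T cell markers was called or had an unadjusted p under 0.05 (sums 647.6 to 1275.5 and 488.8 to 2178.9). Of 6 myeloid markers 1 was higher (16.7%) and 2 were lower (33.3%; sums 5093.5 to 6888.8 and 7344.3 to 11316.7). The log2 fold change was above 0 only for the myeloid marker called higher and below 0 for the other 5, with a median of -0.86. In the list of 9 mTEC markers, Ccl21a was listed at 0 in every library. The counting tool is not given, so this 0 does not show that the gene was silent. Of the 8 mTEC markers tested 2 were higher and 2 lower (25% each), Aire being one of the lower. No other marker of these lists was at 0 in all libraries. The part of these cells in the muscle gene results was not tested.

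The exons of 15 of the 38 genes overlap another gene, on the opposite strand for all of them but Tnni3. Since no source used here tells whether strand was used in the counting, reads of such partners cannot be told apart. Among the called genes these are Neb and Myl2, whose partners are the antisense gene Gm13522 and the coding gene Ccdc63. Over 10% of the 50-base words were shared with transcripts of other genes for 10 of the 38. Of the called genes only Myh4 was among these 10, and Myog, Myf6 and Actc1 shared 0%.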

How the data were processed

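RNA was measured in 7 samples, 4 Cre-negative and 3 Cre-positive, grouped by their labels. Per the submitters' processing notes, STAR 2.7.9a, DESeq2 and the build GRCm39 were used, and the counting tool is not given in the sources used here. The deposited table holds a signal per sample, normalized counts rounded to 1 decimal, which come out as whole reads over a factor per library, with the authors' log2 fold change and adjusted p-value. Gene coordinates equal those of GENCODE M21 (GRCm38) for 95.2% of 52403 shared genes, so GRCm38 positions are printed.

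Whole reads were recovered for alternatives only. The worth of a read came from the unrounded deposited mean of genes read in 1 sample alone, and 100% of values came out whole within 0.0501. Limits for listed zeros cover counting error only, since no molecular identifiers are mentioned.

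limma 3.58.1, with a trend of variance on mean level, was run on log2(normalized count + 1) for the 22878 genes whose mean reached 5, with genotype as the only term; 32658 genes were left out. Alternatives used edgeR 4.0.16 and DESeq2 1.42.0 (R 4.3.3), limma-voom, other pseudocounts, filters, scalings and covariates, and each library left out. The tests were also run on simulated data, but the outcome is not reported here and no result rests on it. Members and lists were chosen with earlier results of these data known. Values in each library are given for called members, members whose groups do not overlap, the Myod family and the 6 most read members. Of each further list, up to 4 called genes with the smallest adjusted p are named, with Chrna1. The values of single libraries of further members were picked after they were seen. Figures used Python 3.11.15 and matplotlib 3.10.9.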

Additional observations from a re-analysis of the deposited data

Results flagged for a closer look

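In 3 muscle genes 1 Cre-negative library stood far from the other 3 by Dixon's criterion on the normalized counts, out of 38 genes examined, where chance gives about 1 in 20. For Myog, Cre-negative 48 was the high library at 61.1, and without it the log2 fold change was 2.49 (limma adjusted p = 0.0102). For Acta1, Cre-negative 77 was high at 114.8, and without it the log2 fold change moved from -0.81 to -0.15 (limma adjusted p = 0.939). For Ryr1, Cre-negative 75 was high at 85.6, and without it the log2 fold change was -1.30 (limma adjusted p = 0.212).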

How the results depend on the processing

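With each of the 7 libraries left out in turn, the number of muscle genes called lower ran from 3 to 8. The number called higher ran from 1 to 2, the added gene being Myl1. Over the same fits the calls lower among all genes ran from 1315 to 1759, in place of 2084 with all libraries. The lowest counts of muscle genes came without Cre-negative 77 and without Cre-positive 76. With a term for the summed level of Y-linked genes 4 were called lower, all of them among the 7, and 1876 of all genes were called in place of 3150; without Cre-negative 46 that count was 1990. The cause was not tested. Both counts of muscle genes stayed the same with a pseudocount of 0.5 or 4, without a filter, with a mean of at least 20, and with TMM scaling. Muscle genes called lower were 10 with library total scaling and with DESeq2. They were 9 with a term for the range of sample numbers, with Ckm and Mymk added, 6 with edgeR and 5 with limma-voom. The call higher stayed at 1 in each. Among all genes the calls lower were 2638 of 23114 tested, 2763 of 24578, 2157 of 22878, 1736 of 19998 and 1352 of 19998 in that order. As reported they were 2084 of 22878. The sign of 5 uncalled genes changed. Tnnc1 gave 0.014 with edgeR and 0.019 with DESeq2, and -0.79 to 0.15 over libraries left out. Myh1 gave -0.63 and Myh6 0.028 with the Y-linked term. Over libraries left out, Myh6 ran from -1.52 to 0.44, Myf5 from -0.069 to 1.78 and Mymx from -0.17 to 0.92. No paired analysis was possible because the groups share no sample number. Depth limits the genes under the filter, Myod1, Tnnc2 and Cacna1s, to at most 27 recovered reads in a group.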

Other observations

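In the authors' deposited table, 29 of the 38 muscle genes have an adjusted p, and for 13 of these (44.8%) it is under 0.05, where 21.8% of the 19558 genes with an adjusted p pass. All 8 genes called here are among the 13. The other 5 are Myl1, higher in Cre-positive samples in the authors' deposited table, and Myh3, Myh8, Tnni2 and Ryr1, lower. For 9 of the 38 genes, among them Mylpf, Tnnt3, Tnnc1 and Ckm, the authors' deposited table has no adjusted p.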
